A study of Mus musculus with 4 samples.

Results

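The guanylate-binding protein genes Gbp2, Gbp2b, Gbp3 and Gbp5, together with Gm12250 and Gm12216, were followed in single colonic macrophages and monocytes. These 6 of the 11820 genes in the count matrix were chosen by name with earlier results by diet in these same mice in view, so their levels by diet are a description, and nothing is read from a test of them between diets. The cells came from the colonic lamina propria of male C57/Bl6N mice, 6 to 7 weeks old, fed either chow or a coconut-based high-fat diet (HFD, 60% fat) for 1 week. Live CD45+ Lin- CD11b+ CD24- cells that carried Ly6C or CD64 were sorted, and each mouse filled its own well of a droplet instrument that tags every RNA molecule with a unique molecular identifier (UMI). Chow replicates 9 and 11 gave 904 and 2002 cells, and HFD replicates 1 and 3 gave 966 and 1548 cells, with 3824228 to 7947893 UMIs per mouse and a median of 3266 to 3926 UMIs per cell. Of the 5420 cells, 46 carried a barcode that was also found in another library. The mouse, not the cell, is the replicate, and with 2 mice per diet no exact test between diets can give a p below 0.33.

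Guanylate-binding proteins are large GTPases that interferon-gamma induces strongly in macrophages. They gather on vacuoles and membranes that hold microbes, help to break them open, and so expose bacterial products to the inflammasome, the caspase platform that matures interleukin-1 and opens gasdermin pores. The immunity-related GTPases (IRG family) act beside them on the same membranes. IRF1 is a transcription factor through which interferon-gamma reaches these genes, and it binds the motif called ISRE. GAS is another motif of interferon-gamma responsive promoters.

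Gbp2 (ENSMUSG00000028270), Gbp2b (ENSMUSG00000040264), Gbp3 (ENSMUSG00000028268) and Gbp5 (ENSMUSG00000105504) lie close together on chromosome 3 of GRCm38, all on the plus strand, within 144 kb from the start of Gbp5 (142493978) to the end of Gbp2 (142638008), in the GENCODE M21 annotation. Gm12250 (ENSMUSG00000082292) lies on the plus strand of chromosome 11. RefSeq describes it as a protein-coding gene from 58183843 to 58190198 and gives Irgb10, an IRG protein, as its other name, whereas the identifier used in the matrix stands in GENCODE M21 for a processed pseudogene from 58187739 to 58189012. Gm12216 (ENSMUSG00000081769) lies on the minus strand of chromosome 11 from 53783418 to 53859256, 5.044 kb beyond the end of Irf1. RefSeq lists it as a long non-coding RNA and GENCODE M21 as protein-coding, and no source used here describes it as a GTPase, so it is treated only as a gene by its name. In the last 500 bases of their transcripts, where reads of this 3′ method fall, Gbp2 shared 5.85% of its 31-base words with other genes (mostly Gbp2b) and Gbp3 shared 4.02% (mostly Gbp7), so a small part of these counts could belong to a neighbour.

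Stretches around an ISRE match of each gene are shown because the motif is what the promoters of all 6 genes had in common. The letters searched were GAAA, any 2 bases and GAAA again, on both strands, in 250 bases before to 50 bases after each RefSeq start site (GRCm38.p6). All 6 genes had a match, against 3.99% of 27025 genes, or 3.44% of 32851 promoters of that length. Each line reads 5′ to 3′ on the strand of the gene, and the capitals mark the ISRE match, which lies on the opposite strand in each case. The last line gives 200 bases before the start of Gm12250 (chr11:58183643-58183842, plus strand), where 2 matches stand close together.
Gbp2 (chr3:142620594-142620623, plus strand): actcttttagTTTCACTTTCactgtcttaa
Gbp2b (chr3:142594700-142594729, plus strand): gtacttctaaTTTCACTTTCttctttatca
Gbp3 (chr3:142559989-142560018, plus strand): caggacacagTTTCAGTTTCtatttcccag
Gbp5 (chr3:142496759-142496788, plus strand): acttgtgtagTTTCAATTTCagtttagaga
Gm12216 (chr11:53859235-53859264, minus strand): ctcccctagtTTTCGCTTTCgcttttgctt
Gm12250: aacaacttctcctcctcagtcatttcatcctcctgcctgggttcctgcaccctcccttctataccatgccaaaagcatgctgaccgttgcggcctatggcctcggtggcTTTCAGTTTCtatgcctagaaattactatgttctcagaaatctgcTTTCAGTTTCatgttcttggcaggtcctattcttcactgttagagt

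Gbp3 held a second match that overlaps the one shown, and none in the promoter of its other start site. The GAS letters (TTC, any 3 bases, GAA) were found for Gbp5, Gm12250 and Gm12216, 3 of the 6 genes, against 9.55% of all genes. The letters of the composite EICE site (GGAA, any 2 bases, GAAA), which overlap the ISRE letters, were found for Gbp5 alone, against 3.16% of all genes. A match is a description of the letters and not a bound site.

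Over all cells, Gbp2, a GTPase of the vacuole-attacking kind, was the member whose level differed most between diets. It stood at 27.4 CPM (UMIs of the gene per 1000000 UMIs of the mouse) in chow replicate 9, 38.5 CPM in chow replicate 11, 955 CPM in HFD replicate 1 and 1146 CPM in HFD replicate 3. The means were 33.0 ± 7.85 CPM (SD, n = 2) and 1051 ± 135 CPM (SD, n = 2), and the ratio of pooled counts was 30.6 (exact 95% interval 27.8 to 33.9, counting error only). The mice of each diet lay close together and far from the other diet. In such sums over all cells, more cells of a type and more RNA per cell cannot be told apart. UMIs of Gbp2 were found in 7.19% and 8.94% of the cells on chow and in 59.2% and 68.9% on HFD.

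Gbp5, which promotes assembly of the NLRP3 inflammasome, stood over all cells at 7.05 and 5.16 CPM on chow and at 59.6 and 63.8 CPM on HFD. Gm12250 stood at 6.78 and 12.7 CPM on chow and at 64.1 and 79.3 CPM on HFD. Gm12216 stood at 10.2 and 13.3 CPM on chow and at 78.7 and 94.2 CPM on HFD. For these 3 genes the diets did not overlap, and the ratios of pooled counts were 10.8, 6.78 and 7.14. Gbp3 stood at 135 and 183 CPM on chow and at 311 and 345 CPM on HFD, a ratio of 1.98 (interval 1.87 to 2.10), also without overlap.

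Gbp2b, also known as Gbp1, was the exception. It stood at 74.1 and 168 CPM on chow and at 88.6 and 144 CPM on HFD, so the diets overlapped and the mice of 1 diet lay further apart than the diets. Without overlap between diets, with HFD above chow, were thus 5 of the 6 members, as were 50.4% of the 4955 genes tested over all cells. The quasi-likelihood test of edgeR called 4 of the 6 higher on HFD at a false discovery rate (FDR) of 1%, where 16.2% of the genes tested were called and 7.67% were called higher. The members were picked from this contrast, so nothing is read from either count.

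Deeper cells show more genes, so each cell was also thinned to 1500 UMIs, which left out 60 and 200 cells on chow and 124 and 201 on HFD. At equal depth 26.2% and 35.6% of the cells on chow and 69.8% and 77.4% of the cells on HFD had a UMI of any of the 6 genes. Gbp2 was found in 3.97% ± 0.587 (SD, n = 2) of cells on chow and 50.6% ± 6.28 (SD, n = 2) on HFD, Gbp3 in 17.3% ± 3.13 and 35.5% ± 1.01, and Gbp2b in 11.3% ± 5.88 and 9.38% ± 2.69. Gbp5, Gm12250 and Gm12216 were each found in under 10% of thinned cells of every mouse, from 0.610% for Gbp5 in a chow mouse to 9.50% for Gm12250 in an HFD mouse. The sort holds no cell type that should lack these genes, and empty droplets were not analysed here, so free RNA as a source of single UMIs was not tested.

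The mix of cells differed between the diets. Cells were therefore divided by genes outside the list. C1q-high cells (resident macrophages by the complement genes C1qa, C1qb and C1qc) were set apart at 23.3 C1q UMIs per 10000, with 174 cells (3.21%) within 0.5 log2 units of that limit. The rest were split by Ly6c2, a marker of monocytes fresh from blood (at least 2 UMIs), and by the MHC class II genes H2-Aa, H2-Ab1, H2-Eb1 and Cd74 (190 UMIs per 10000, with 268 cells near the limit). C1q-high cells made up 84.5% and 92.4% of the cells on chow and 47.6% and 42.2% on HFD, and there were 48 and 50 Ly6c2+ MHC II-low cells on chow and 229 and 268 on HFD. Summed over the mice, the monocyte gene Chil3, not used to divide the cells, stood at 9857 CPM in Ly6c2+ MHC II-low cells and 214 CPM in C1q-high cells. Of the 5 macrophage genes not used, Cx3cr1 (72.8 and 407 CPM), Adgre1 (205 and 560 CPM) and Mertk (0.940 and 29.2 CPM) were higher in C1q-high cells, Cd68 was close (530 and 582 CPM), and Fcgr1, which encodes CD64, was lower (286 and 188 CPM). The Ly6c2+ MHC II-high gate held 1 and 13 cells on chow and is given for HFD only.

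**Figure D1:**
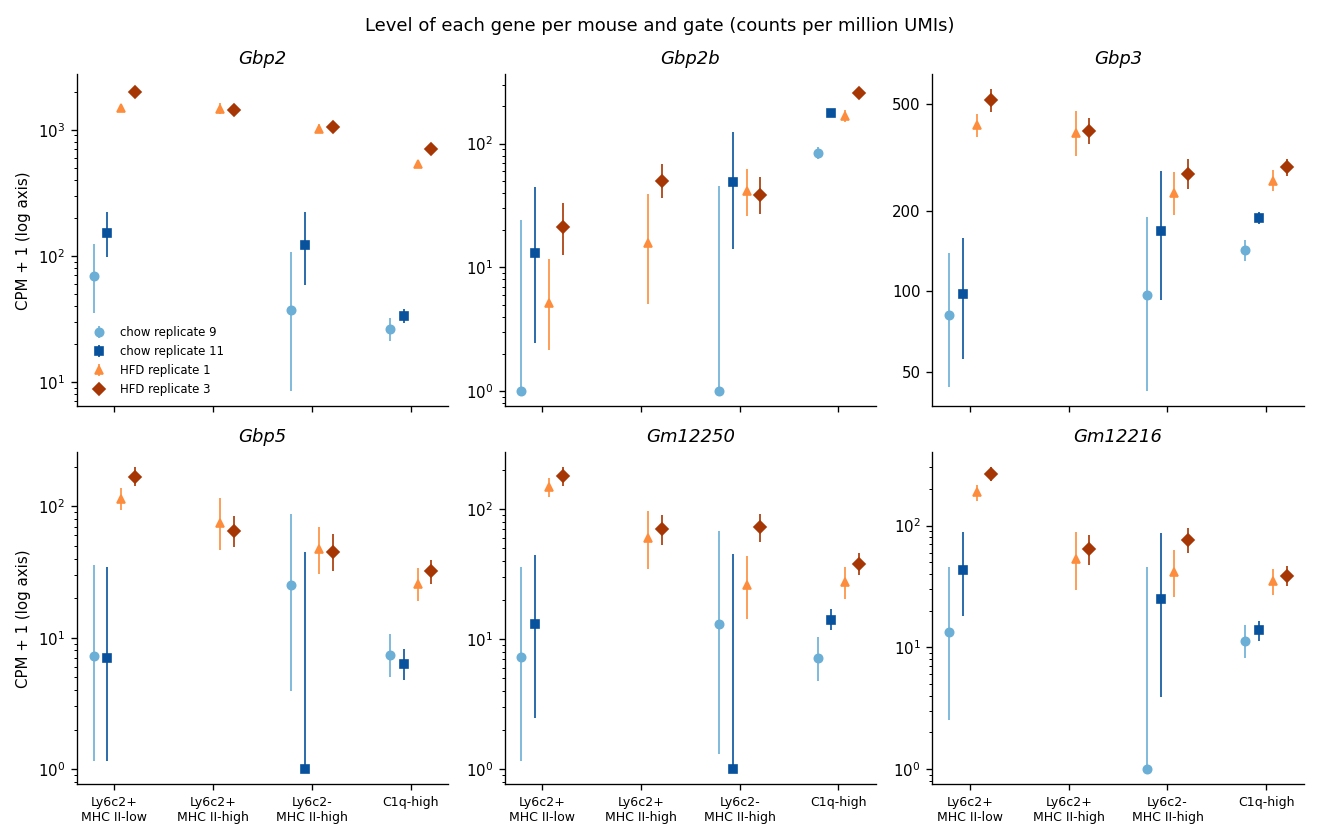
Level of each gene in each mouse and gate, as CPM + 1 on a log axis, with exact 95% Poisson intervals of the count; sums of fewer than 20 cells are left out. Gbp2 of either HFD mouse lies above the chow mice in each gate drawn for both diets, and Gbp2b of all 4 mice is highest in C1q-high cells.

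Within gates, the levels by diet again differed by gene. In Ly6c2+ MHC II-low cells Gbp2 stood at 68.4 and 151 CPM on chow and at 1479 and 1987 CPM on HFD. In C1q-high cells it stood at 25.1 and 32.4 CPM on chow and at 529.5 and 703 CPM on HFD, a ratio of 21.1 (interval 18.8 to 23.7). The diets lay apart in each of these gates. Gbp3 stood at 80.8 and 96.6 CPM on chow and at 417 and 516 CPM on HFD in Ly6c2+ MHC II-low cells, but at 142 and 187 against 258 and 289 CPM in C1q-high cells.

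Gbp5, Gm12250 and Gm12216 had few counts in chow monocytes. In the 98 Ly6c2+ MHC II-low cells of both chow mice there were 2 UMIs of Gbp5, 3 of Gm12250 and 9 of Gm12216. The same gate of the HFD mice held 112 and 167 CPM of Gbp5, 147 and 178 CPM of Gm12250, and 186 and 263 CPM of Gm12216. The ratio of pooled counts was 22.6 for Gbp5 (interval 6.18 to 187), 17.6 for Gm12250 (interval 5.96 to 85.8) and 8.06 for Gm12216 (interval 4.20 to 17.7), and the width of these intervals comes from the few chow counts. In C1q-high cells the ratios were 5.04 for Gbp5, 2.98 for Gm12250 and 3.03 for Gm12216. Whether the ratios differ between gates was not tested. In Ly6c2+ MHC II-low cells the 5 members that passed the filter on low counts were all called higher on HFD and did not overlap between diets, where 0.321% of the genes were called higher and 29.3% had each HFD mouse above the chow mice. In C1q-high cells 3 members passed that filter and Gbp2 was called higher, where 5.35% of the genes were. In Ly6c2- MHC II-high cells all 6 passed it and 1, Gbp2, was called, where 0.369% of the genes were called and 0.174% were called higher. These counts come from the contrast that chose the members, and nothing is read from them.

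Markers of other cells moved with diet in the same gates. In Ly6c2+ MHC II-low cells the summed level of the 3 of 5 B and plasma cell genes that were in the matrix was 52696 and 35268 CPM on chow against 10119 and 7968 CPM on HFD, and 4 epithelial genes summed to 0 and 6.03 CPM on chow against 4.20 and 621 CPM on HFD. The 6 T and NK cell genes were all at 0 there on chow and summed to 4.20 and 25.9 CPM on HFD, with Cd3e, Klrb1c and Ncr1 at 0. In C1q-high cells the 6 monocyte genes summed to 338 and 519 CPM on chow against 2837 and 3751 CPM on HFD. The part of these in the levels by diet was not tested.

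The members were chosen by diet and not by gate, and the comparison between gates was tested. The test was edgeR's quasi-likelihood test on the sums per mouse and gate, with a term for each of the 4 mice. This comparison is not independent of the choice by diet. Ly6c2+ MHC II-low cells were a larger share of either HFD mouse than of either chow mouse. A choice of genes high on HFD can therefore favour genes high in those cells. Falls of members from that gate are thus no independent evidence of a direction. From Ly6c2+ MHC II-low to C1q-high cells, 4 members fell and 1 rose, 5 of 6 called at an FDR of 1%, where 17.4% of the 5024 genes tested were called (8.52% lower and 8.92% higher). The median log2 difference of the members was -1.71, and that of all genes tested 0.02. Gbp2 fell by 1.52 on the log2 scale (SE 0.17, adjusted p = 1.1e-06) and was lower in C1q-high cells in 4 of 4 mice, as were 26.2% of the genes. Gbp5 fell by 1.97 (SE 0.31, adjusted p = 8.6e-05), Gm12250 by 1.90 (SE 0.34, adjusted p = 0.00028) and Gm12216 by 2.21 (SE 0.28, adjusted p = 7.1e-06). Gm12216 was lower in 4 of 4 mice. For Gbp5 and Gm12250 the difference came from the HFD mice: the ratio of C1q-high to Ly6c2+ MHC II-low cells was 0.2199 and 0.1856 for Gbp5 and 0.179 and 0.207 for Gm12250 on HFD, but 1.03 and 0.880 for Gbp5 and 0.986 and 1.09 for Gm12250 on chow, where Ly6c2+ MHC II-low cells held 1 or 2 UMIs of each per mouse. Only 3.52% of C1q-high cells had a UMI of Gbp5, 4.64% of Gm12250 and 4.70% of Gm12216, so these 3 passed the filter on low counts (a UMI in 5% of all cells of the fit) through the other gates. Without that filter the same 5 members were called, where 1284 of 11816 genes were. The falls of Gbp5, Gm12250 and Gm12216 are therefore a description, and nothing is read from their tests between these 2 gates. Gbp2b had a UMI in only 3.36% of Ly6c2+ MHC II-low cells. Of the 5 members called, only Gbp2 had a UMI in over 5% of the cells of both gates. Nothing is thus read from the count of 5 of 6 or from the median of the members.

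Gbp2b went the other way. It stood at 0, 12.1, 4.20 and 20.02 CPM in Ly6c2+ MHC II-low cells of chow 9, chow 11, HFD 1 and HFD 3, and at 82.9, 176, 167 and 253 CPM in C1q-high cells of the same mice. The gates did not overlap. The log2 difference was 4.29 (SE 0.33, adjusted p = 1.0e-08), higher in 4 of 4 mice, as were 18.2% of the genes. The fitted difference rests on 23 UMIs in Ly6c2+ MHC II-low cells, with none in chow replicate 9. Only 3.36% of Ly6c2+ MHC II-low cells had a UMI of Gbp2b, so it passed the filter on low counts through the other gates. Its rise is therefore a description too, and nothing is read from its test between these 2 gates.

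Gbp3 did not pass the test between these gates over the 4 mice (log2 difference -0.10, SE 0.24, adjusted p = 0.81), and its mice disagreed. It was higher in C1q-high than in Ly6c2+ MHC II-low cells in both chow mice and lower in both HFD mice. The log2 difference was 1.05 with the chow mice alone (adjusted p = 0.0078) and -0.64 with the HFD mice alone (adjusted p = 0.00016). The difference between these was not tested.

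**Figure D2:**
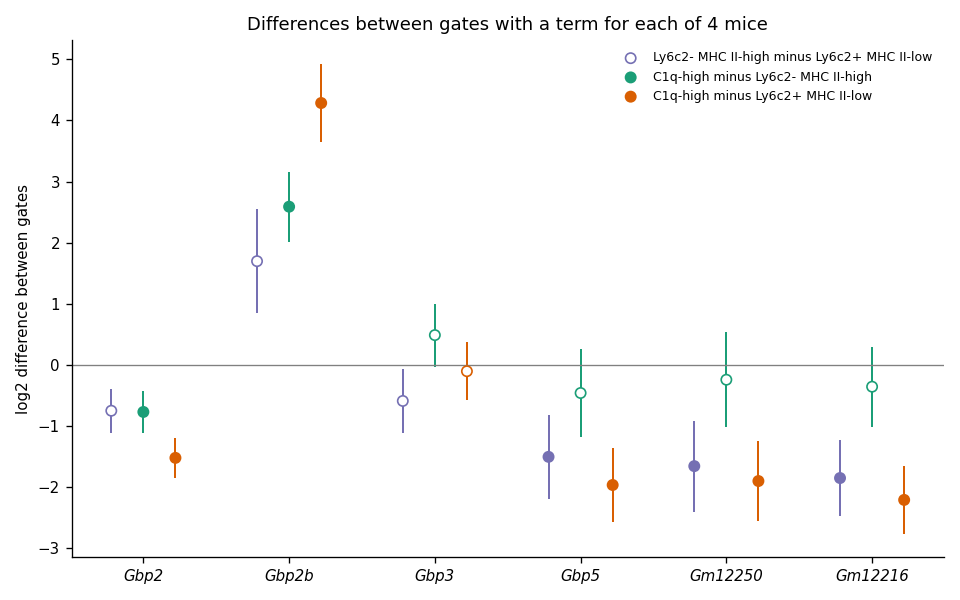
Log2 difference of each gene between 3 pairs of gates, fitted with a term for each of 4 mice; bars are 95% intervals and filled points passed an FDR of 1%. Gbp2b lies above 0 in each pair, and Gbp2, Gbp5, Gm12250 and Gm12216 lie below 0.

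The step from Ly6c2+ MHC II-low to Ly6c2- MHC II-high cells was called for 3 members, where 4.76% of the genes were called, 2.49% higher and 2.27% lower. Gm12216 fell by 1.85 (SE 0.32, adjusted p = 0.0008), Gm12250 by 1.66 (SE 0.38, adjusted p = 0.0081) and Gbp5 by 1.51 (SE 0.35, adjusted p = 0.0086). Gm12216 was lower in 4 of 4 mice, as were 13.3% of the genes, but the chow mice held only 0 against 2 UMIs and 2 against 7 UMIs of it. The falls of Gbp5 and Gm12250 came from the HFD mice, with ratios of 0.410 and 0.265 for Gbp5 and 0.170 and 0.402 for Gm12250, since each chow mouse held 0 to 2 UMIs of either gene per gate and chow replicate 9 went the other way for both. Gbp2 (-0.75, adjusted p = 0.012), Gbp2b (1.70, adjusted p = 0.016) and Gbp3 (-0.59, adjusted p = 0.19) did not pass. From Ly6c2- MHC II-high to C1q-high cells, where 4.18% of the genes were called, 3.14% higher and 1.04% lower, Gbp2b rose by 2.59 (SE 0.29, adjusted p = 8.0e-06) and Gbp2 fell by 0.77 (SE 0.18, adjusted p = 0.009), and the other 4 did not pass. The call of Gbp2 there was lost when any mouse was left out.

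Some of these calls needed both HFD mice. Between Ly6c2+ MHC II-low and C1q-high cells, leaving out HFD replicate 1 left Gbp2, Gbp2b and Gm12216 called, where 566 of 5008 genes were. Gbp5 then stood at an adjusted p of 0.011 and Gm12250 at 0.028. Leaving out HFD replicate 3 left the same 3 genes called, where 634 of 5040 were, with Gm12250 at 0.038 and Gbp5 below the filter. For the step to Ly6c2- MHC II-high cells, leaving out either HFD mouse left 0 of the members called by edgeR, with 5 of 6 (without replicate 1) and 4 of 5 (without replicate 3) at an unadjusted p under 0.05, as were 14.8% and 16.4% of the genes tested. DESeq2 with all mice called Gm12216 and Gbp2b at that step, where it called 294 of 5024 genes.

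In the HFD mice alone the Ly6c2+ MHC II-high gate could be added. Going from MHC II-low to MHC II-high among Ly6c2+ cells, where 5.7% of the genes were called, 2.81% higher and 2.89% lower, Gm12216 fell by 1.99 (adjusted p = 9.6e-08), Gm12250 by 1.40 (adjusted p = 0.00024) and Gbp5 by 1.08 (adjusted p = 0.0044). Gbp2 (-0.24, adjusted p = 0.22), Gbp3 (-0.25, adjusted p = 0.32) and Gbp2b (1.60, adjusted p = 0.012) did not pass. Gbp2b stood higher in MHC II-high cells of both mice, at 14.8 against 4.20 CPM in replicate 1 (4 UMIs in each gate) and 49.3 against 20.02 CPM in replicate 3, a ratio of 2.46 (interval 1.36 to 4.63). Gbp2 stood at 1463 and 1445 CPM in Ly6c2+ MHC II-high cells of these mice.

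Cells were also grouped by the C1q level itself. In cells with a log2 C1q level below 2, Gbp2 of the HFD mice stood at 1444 and 1565 CPM, and in cells at 8 or above at 220 and 313 CPM. Gbp2b stood at 5.68 and 28.8 CPM at the low end and 469 and 490 CPM at the high end. On chow Gbp2b was at 0 in the lowest bin of both mice and at 75.5 and 113 CPM in the highest, below its peak of 86.1 and 190.5 CPM in the bin before.

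**Figure D3:**
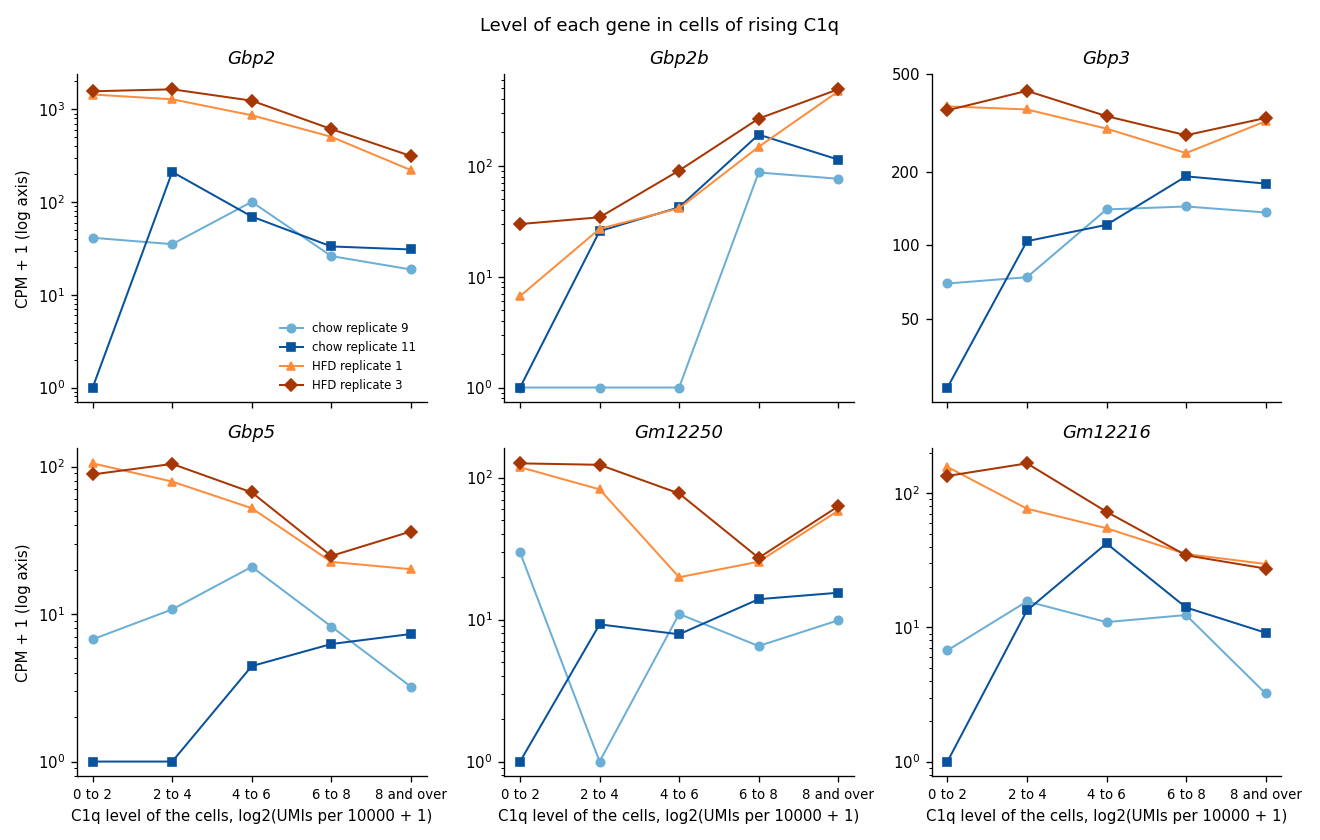
Level of each gene, as CPM + 1 on a log axis, in cells grouped by their C1q level (log2 of UMIs per 10000 + 1), 1 line per mouse. In HFD mice Gbp2 lies at 1444 and 1565 CPM in the lowest bin and at 220 and 313 CPM in the highest, where Gbp2b lies at 469 and 490 CPM; the lowest bin of chow replicate 11 holds 20 cells.

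Along MHC II, Gbp5 of the HFD mice stood at 135 and 202 CPM in cells with a log2 level below 5 and at 19.98 and 16.1 CPM in cells at 10 or above. Gm12216 stood at 160 and 466 CPM and at 30.6 and 41.5 CPM. Along Ly6c2, Gbp2 of the HFD mice stood at 563 and 689 CPM in cells with no Ly6c2 UMI and at 1490 and 1925 CPM in cells with 5 or more. Gbp2b went from 149 and 246 CPM to 6.50 and 70.1 CPM over the same range. These axes are not independent, since C1q-high cells have more MHC II and less Ly6c2.

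Whether the genes are found in the same cells was read at 1500 UMIs per cell, within each mouse and gate, so that depth, diet and gate were held equal; differences between cells of 1 gate were not tested. The expected number is what each mouse and gate would give if the genes were found independently. In the HFD mice 210 of 2189 cells (9.59%) had UMIs of 3 or more members, against 183.6 expected, a ratio of 1.14 that was 1.15 in replicate 1 and 1.14 in replicate 3. Cells with 4 members numbered 42 against 22.2 expected, and cells with 5 members 7 against 1.48. Those with exactly 3 members were at expectation, with 161 against 160, and at 2500 UMIs numbered 219 against 235.

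Gbp5 and Gm12250 were the pair found together most often beyond expectation, in 42 cells against 21.6, a ratio of 1.95 (1.93 and 1.95 in the 2 mice). Gbp2 and Gbp3 were found together in 492 cells against 414, a ratio of 1.19 that was above 1 in 10 of 10 combinations of mouse and gate. By mouse and gate, over the 4 gates, Gbp3 was found in 43.8% to 63.8% of cells with 3 or more UMIs of Gbp2 and in 15.6% to 36.5% of cells with none. Gbp2b had a ratio of 0.83 with Gbp2 (79 cells against 94.7), 0.59 with Gbp5 (6 against 10.1) and 0.49 with Gm12250 (5 against 10.1), and 1.04 with Gbp3 (73 against 70.4). The ratios with Gbp5 and Gm12250 turned at 2500 UMIs, to 1.07 with Gbp5 (17 against 15.9) and 1.07 with Gm12250 (19 against 17.8). At 1000 UMIs the ratio was 1.14 with Gbp5 (7 against 6.13) but 0.57 with Gm12250 (4 against 7.08). Gbp5 with Gm12250 stood at 2.20 and 1.52 at 1000 and 2500 UMIs. With such sparse counts these are descriptions with no test.

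**Figure D4:**
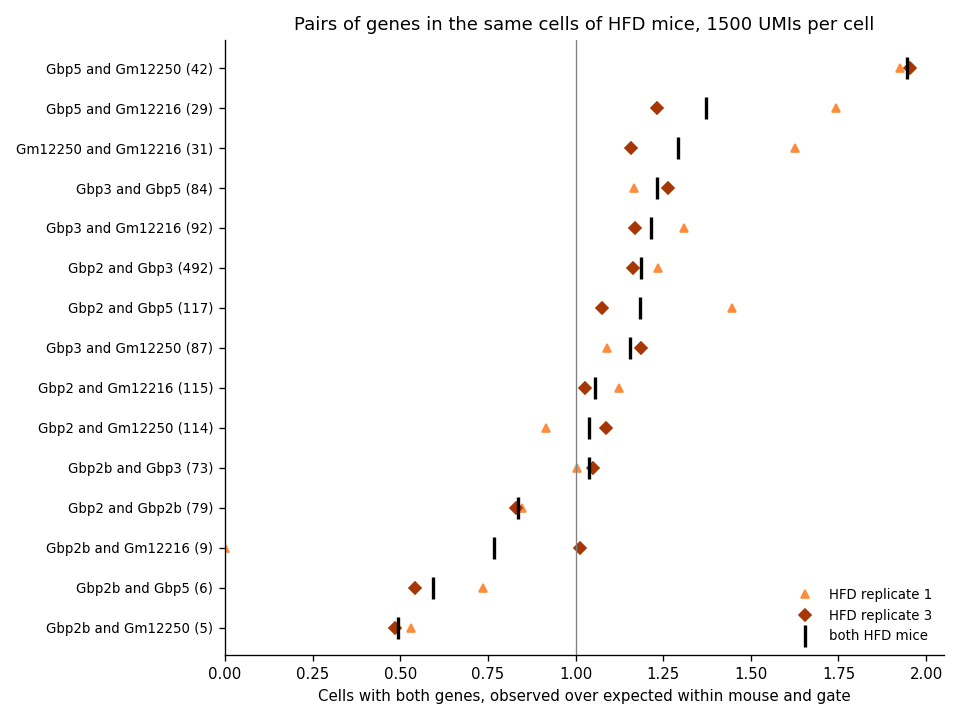
Cells of the HFD mice with UMIs of both genes of a pair, observed over expected within mouse and gate at 1500 UMIs per cell; the number of cells observed is in brackets, black bars give both mice together and coloured points each mouse. Gbp5 and Gm12250 lie at 1.95. Gbp2b with Gm12250 lies at 0.49, on 5 cells, and this ratio was 0.57 at 1000 UMIs and 1.07 at 2500 UMIs.

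Irf1, the interferon-induced transcription factor whose gene neighbours Gm12216, was found with Gm12216 in 99 HFD cells against 62.8 expected (ratio 1.58), with Gbp5 in 89 against 56.2 (1.58) and with Gm12250 in 92 against 63.6 (1.45), each above 1 in 10 of 10 combinations. The ratio was 1.18 with Gbp2b, 1.14 with Gbp3 and 1.03 with Gbp2 (317 against 307.3), the last above 1 in 6 of 10. At 1000 UMIs it was 1.29 with Gm12216, above 1 in 7 of 10 combinations. With Gbp5 it was 1.52 there and with Gm12250 1.47, each above 1 in 9 of 10. The ratio with Gbp2b was 0.99 at 1000 UMIs (25 against 25.2) and 1.06 at 2500 UMIs, above 1 in 2 of 10.

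Other genes of the pathway were read from lists and tested between diets over all genes. The lists too were drawn up with earlier results by diet in these mice known, so their counts between diets are no independent evidence of a direction, and nothing further is read from them. Over all cells, where 7.67% of the genes were called higher and 8.58% lower, 14 of the list genes were called. Of 7 other Gbp genes 4 were in the matrix, 2 were tested and Gbp7 rose, from 52.5 ± 15.2 to 130.4 ± 0.230 CPM (SD, n = 2). Of 13 other IRG genes 7 were in the matrix, and both that were tested rose: Iigp1, an effector that acts on parasite vacuoles, from 7.05 ± 4.44 to 78.0 ± 20.1 CPM, and Irgm1, a regulator of the family, from 6.13 ± 1.29 to 47.8 ± 12.6 CPM. Of 8 other GTPase genes measured 3 were tested and Gm1966 rose over all cells, from 20.6 ± 4.82 to 52.3 ± 4.38 CPM. It was not called within gates, with log2 differences of 0.31 in Ly6c2+ MHC II-low, -0.42 in Ly6c2- MHC II-high and 0.62 in C1q-high cells. The part of the mix of cells in its rise was not tested. The other 3 Gbp and 6 IRG genes on the lists were not analysed here.

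Of 15 tested genes of the interferon-gamma receptor and its factors, 3 rose and 1 fell. Irf1 rose from 111 ± 29.2 to 267 ± 28.0 CPM (log2 difference 1.04, adjusted p = 0.0095) and Stat2 from 14.2 ± 1.63 to 37.6 ± 0.784 CPM. Socs3, a brake on cytokine signalling, fell over all cells from 1006 ± 11.1 to 665 ± 70.7 CPM. Socs3 also fell in C1q-high cells, from 1053 and 1031 CPM to 672 and 593 CPM. In Ly6c2+ MHC II-low cells it stood higher on HFD, at 921 and 797 CPM against 454 and 465 CPM on chow, and was not called. Of 15 tested genes of the inflammasome and cell death, 5 rose and 0 fell. Among them were Zbp1, a sensor of nucleic acids (37.1 ± 2.94 to 387 ± 42.3 CPM), Ripk3, a necroptosis kinase (35.5 ± 0.446 to 76.5 ± 10.1 CPM), Pycard, the inflammasome adaptor ASC (287 ± 15.01 to 641 ± 19.9 CPM), and Gsdmd, the pore protein (85.1 ± 2.98 to 185 ± 26.1 CPM). By gate, Gsdmd was called higher on HFD in C1q-high cells, at 76.7 and 83.1 CPM on chow against 152 and 180 CPM. In Ly6c2+ MHC II-low cells its diets overlapped, at 130.5 and 187 CPM on chow against 152 and 197 CPM. Of 9 tested genes that mark vacuoles for attack, Sqstm1, an autophagy adaptor, fell, from 259 ± 1.65 to 180 ± 12.3 CPM. Without HFD replicate 3 these 14 calls came to 2, and without HFD replicate 1 to 4.

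Irf1 was also read by gate. In Ly6c2+ MHC II-low cells Irf1 stood at 99.5 and 109 CPM on chow against 531 and 576 CPM on HFD and rose (log2 difference 2.28, SE 0.26), the only one of the list genes called there, in a gate where 0.513% of genes were called. Without either HFD mouse that call was lost. In C1q-high cells, where 10.5% of genes were called, Irf1 stood at 86.7 and 133 CPM on chow against 164 and 148 CPM on HFD and did not pass (adjusted p = 0.27). Whether the effect of diet differs between these gates was not tested. Of the list genes, 7 were called in C1q-high cells, 6 higher and 1 lower, where 5.35% of the genes were called higher and 5.13% lower, and without either HFD mouse this came to 1.

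Between Ly6c2+ MHC II-low and C1q-high cells, with a term for each mouse, the IRG gene Irgm1 fell by 1.97 (adjusted p = 0.00011). Irf1 fell by 1.02 (adjusted p = 0.0089), and Gbp8 rose by 1.84 (adjusted p = 0.00023). Irgm1 did not pass the filter on low counts in C1q-high cells taken alone, and entered this fit through the other gates. On chow it held 1 and 5 UMIs in Ly6c2+ MHC II-low cells. Its fall is therefore a description, and nothing is read from its test. Gbp7 (-0.34, adjusted p = 0.46) and Iigp1 (0.26, adjusted p = 0.53) did not pass. Irf1 was lower in C1q-high cells of both HFD mice, at 164 against 531 CPM and 148 against 576 CPM. On chow the mice disagreed, with 86.7 against 99.5 CPM in replicate 9 and 133 against 109 CPM in replicate 11. Of 15 tested interferon-gamma signalling genes 5 fell and 0 rose, with a median log2 difference of -0.47, and of 15 inflammasome and cell death genes 5 fell and 1 rose, with a median of -0.31. Of the other lists 1 of 2 Gbp genes rose, and 1 of 2 IRG genes (Irgm1) and 2 of 3 other GTPase genes fell. Of 9 vacuole genes 1 rose and 1 fell. Over all genes tested 8.52% fell and 8.92% rose, with a median of 0.02.

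Over the 12 sums of 4 mice and 3 gates, the genes whose levels followed the mean of the members most closely were Ms4a6d (Pearson r 0.97), Iigp1 (0.91), Nampt (0.91), Ppa1 (0.91), Slamf8 (0.91), Scfd1 (0.91), Sdhd (0.90) and Irf1 (0.89), of 5018 genes compared. These sums share mice and gates, so r is a description with no test. Gbp5 and Gm12250 followed each other closely (r 0.95), and Gbp2b followed neither of them (r -0.10 and 0.01). The gene most like Gbp2b was Ccl8 (0.97), that most like Gbp2 was Pdk3 (0.96), and that most like Gm12216 was Arid5a (0.96). Mxd1 was most like Gbp5 (0.92), Cept1 most like Gm12250 (0.93) and Ms4a6d most like Gbp3 (0.91).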

How the data were processed

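The deposited values are raw UMI counts per gene and cell. Per the labels and the methods of the study, the authors made them with kallisto (0.46.0) and bustools (0.39.2) on mm10, dropped cells by depth, features and mitochondrial share, dropped scarce genes, and kept only cells that an automatic annotation named macrophage or monocyte. The values are not normalized and mice are not pooled. Symbols came from GENCODE M21 for 11819 of 11820 genes. Cell names give the mouse.

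Counts were summed per mouse and gate. Where each mouse had 20 or more cells in a gate, edgeR (4.0.16) was run with TMM scaling and its quasi-likelihood test, with calls at an FDR of 1%, on genes above 1 CPM in at least 2 sums and with a UMI in at least 5% of cells. The C1q and MHC II limits were set by Otsu's method. Between gates a term for each mouse was fitted. Because the Ly6c2+ MHC II-high gate held too few chow cells, C1q-high cells were also compared with Ly6c2+ MHC II-low cells, a contrast added after seeing the data. Alternatives were DESeq2 (1.42.0), its size factors, the likelihood-ratio test, no filter, other gate limits, each mouse left out, and removal of the 38 doublets marked by Scrublet in scanpy (1.11.5), which were kept otherwise. In simulated data, where 200 genes were given a log2 change of 2, the test recovered 99% between C1q-high and Ly6c2+ MHC II-low cells (5024 genes), and between diets 61% in Ly6c2+ MHC II-low (4678 genes), 97.5% in C1q-high (5066 genes) and 0% in Ly6c2- MHC II-high cells (4608 genes), so changes of that size can be missed in the last gate.

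Intervals of CPM and of ratios are exact 95% intervals and cover counting error only. Named genes were all 6 members, of each list up to 4 genes with the largest difference among those called between diets, Irf1, the 8 genes most like the members and the gene most like each. A further gene that the rule names is not reported here. Genes named between gates outside this rule (Gbp8) were chosen after their values were seen. The members and lists were chosen with earlier results of these data known. The labels say that cells came from separate mice. Promoter sequences came from RefSeq (GRCm38.p6).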

Additional observations from a re-analysis of the deposited data

Results flagged for a closer look

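Gbp3 is given here because its level moved one way between gates in both chow mice and the opposite way in both HFD mice. From Ly6c2+ MHC II-low to C1q-high cells the log2 ratio of mean CPM was 0.89 on chow and -0.77 on HFD, and from Ly6c2+ MHC II-low to Ly6c2- MHC II-high cells it was 0.57 on chow and -0.88 on HFD. The chow values rest on 29 UMIs of Gbp3 in Ly6c2+ MHC II-low cells and 22 UMIs in Ly6c2- MHC II-high cells. For the step to Ly6c2- MHC II-high cells the chow ratios were 1.19 (interval 0.427 to 3.09) and 1.74 (interval 0.784 to 3.79), so a higher level on chow was not detectable there. The difference between diets was not tested.

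Cells outside the 4 gates (63 and 55 on chow, 86 and 111 on HFD), which are low in C1q, Ly6c2 and MHC II and entered no comparison between gates (they are part of the values over all cells, of the levels along C1q, MHC II and Ly6c2, and of the counts of genes found together), also held 5 of the 6 members at a higher level on HFD than on chow. In these cells Gbp2 averaged 2109 CPM on HFD and 81.1 CPM on chow. The same means were 438 and 68.3 CPM for Gbp3, 146.5 and 6.38 CPM for Gbp5, 209 and 9.57 CPM for Gm12250, and 227 and 7.03 CPM for Gm12216. The diets did not overlap for any of these 5 genes, and 23.7% of 3901 genes in these cells also had each HFD mouse above the chow mice. The members were chosen by diet, so nothing is read from this count. Gbp2b averaged 4.19 CPM on HFD and 7.67 CPM on chow, with overlap. Their median depth was 2191 UMIs per cell, and Chil3 stood at 8366 CPM in them.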

How the results depend on the processing

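No paired analysis was possible between diets because the replicate numbers differ (9 and 11 on chow, 1 and 3 on HFD); between gates the mouse was a term of the fit. Of 240 values of members between gates under the alternatives, 196 kept direction and side of the threshold, 23 lost the threshold, 12 gained it and 9 reversed. The reversed values were Gbp3 between C1q-high and Ly6c2+ MHC II-low cells (0.060 with DESeq2, 0.084 with lower limits, 1.05 with chow mice only, and from -0.34 to 0.25 with a mouse left out, above 0 without either HFD mouse), Gbp3 between Ly6c2- MHC II-high and Ly6c2+ MHC II-low cells (0.44 with chow mice only), and, between C1q-high and Ly6c2- MHC II-high cells, Gm12250 (0.14 with DESeq2, and from -0.47 to 0.71 with a mouse left out) and Gm12216 (from -0.53 to 0.17), the last 2 above 0 only without HFD replicate 3. None of these was called with all 4 mice. The cause was not tested. Of 218 diet values of members, 215 kept their direction, and the other 3 were of Gbp2b.

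Calls between diets, with main counts of 24 (Ly6c2+ MHC II-low), 17 (Ly6c2- MHC II-high), 531 (C1q-high) and 805 (all cells), became 86, 153, 927 and 1307 with the likelihood-ratio test and 112, 184, 910 and 1218 without the filter. In Ly6c2- MHC II-high cells they became 29 with DESeq2 size factors, 55 with DESeq2, 88 with 1 UMI of Ly6c2, 95 and 71 with lower and higher limits, and 36 without doublets. In Ly6c2+ MHC II-low cells they became 37 with 1 UMI of Ly6c2 and 53 with higher limits. With a mouse left out the ranges were 0 to 47, 0 to 40, 15 to 516 and 119 to 811.

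List genes called (main 1, 0, 7 and 14) became 6 and 3 in Ly6c2+ MHC II-low and Ly6c2- MHC II-high cells with the likelihood-ratio test, and 6, 4 and 13 in the 3 gates without the filter. In Ly6c2+ MHC II-low cells they became 2 with DESeq2 size factors, with DESeq2 and without doublets, 3 with 1 UMI of Ly6c2 and 4 with higher limits. In Ly6c2- MHC II-high cells they became 1 with DESeq2, with 1 UMI of Ly6c2, with higher limits and without doublets, and 3 with lower limits. With a mouse left out the ranges were 0 to 2, 0 to 0, 1 to 6 and 2 to 17.

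Calls between Ly6c2- MHC II-high and Ly6c2+ MHC II-low cells (239) became 439 with the likelihood-ratio test, 496 without the filter, 118 with chow mice only and 542 with HFD mice only, and members called (3) became 5, 5, 0 and 6. With a mouse left out the ranges were 93 to 225 genes and 0 to 3 members. Calls between C1q-high and Ly6c2- MHC II-high cells (210) became 356 with the likelihood-ratio test and 437 without the filter, with a range of 112 to 147. Members called there (2) became 1, Gbp2b, under DESeq2 size factors, DESeq2, no filter, 1 UMI of Ly6c2, both other limits, chow mice only and each mouse left out (1 to 1). Calls between C1q-high and Ly6c2+ MHC II-low cells (876) ranged from 566 to 750 with a mouse left out, and members called (5) from 3 to 5, with 3 for chow mice only, where Gbp5, Gm12250 and Gm12216 did not enter the fit.

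Cells with any member (30.9% on chow, 73.6% on HFD) came to 23.6% and 62.8% at 1000 UMIs and 45.5% and 82.7% at 2500 UMIs. The ratio for 3 or more members on HFD (1.14) came to 1.31 at 1000 UMIs and 1.06 at 2500 UMIs. Of the 8 genes most like the members, 2 were again among the first 8 by Spearman's rho.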
